A study of Mus musculus with 2 samples.

Results

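Circadian clock genes were compared between MALAT1-knockdown and control C3H10 cells. The genes were chosen by name for their place in the clock, although earlier results of these data were known. They were Arntl (also called Bmal1), Clock, Per2, Per3, Cry1, Cry2, Nr1d1, Nr1d2, Dbp and Tef. These are 10 of the 46095 genes in the count table, and all 10 passed the minimum of 10 counts summed over both libraries, which 17356 genes passed. C3H10 is a mouse embryonic mesenchymal line that turns into adipocytes in a hormone mixture. Here the mixture held dexamethasone, isobutylmethylxanthine, troglitazone and insulin for the first 2 days, and a maintenance medium with insulin followed. The strain is given as C57BL/6 in the labels, although the line is known to derive from C3H embryos. The cells of each group received an antisense oligonucleotide (ASO, a short strand that directs cleavage of the RNA it pairs with) at 100 nM before differentiation, directed at MALAT1 in one group (ASO MALAT1) and a negative control in the other (ASO NC). Which of the ASOs against MALAT1 was used for the library is not given in the sources used here. RNA was taken at day 6 of differentiation, and each group is 1 library of rRNA-depleted total RNA.

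The mammalian clock is a feedback loop of transcription. ARNTL and CLOCK bind E-boxes and switch on the Per and Cry genes, whose proteins return to the nucleus and block them. In a linked loop the receptors encoded by Nr1d1 and Nr1d2 (REV-ERBα and REV-ERBβ) repress Arntl through a shared DNA element, where the ROR receptors compete with them, and the PAR bZIP factors DBP and TEF carry the rhythm to output genes through D-boxes. In tissues with a running clock Arntl peaks nearly opposite to Nr1d1, Dbp and Per3, the clock runs in fat cells too, and glucocorticoids such as dexamethasone and serum are known to reset it in culture.

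Depth was similar, with 58147539 counts in the control and 61653549 in the knockdown library. Malat1 itself had 170402 counts in the control against 45396 in the knockdown library, or 24.7% of the control level after scaling. Levels are CPM, the counts of a gene in every 1000000 counts of its library after scaling with edgeR's TMM method. Each log2 fold change is followed by its exact 95% interval in square brackets, and ratios and differences between genes by a normal 95% interval of the log odds, which likewise cover counting error only. With 1 library a group no difference has a replicate check and no p-value was computed, so the words higher and lower compare these libraries, not the conditions. A gene was counted as past the fold threshold at 1.5-fold, a log2 fold change of 0.58 in either direction. Each library is 1 harvest, the time since the clock was last reset is not given in the sources used here, and a shift in the phase of the rhythm and a change in the level of a gene cannot be told apart.

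Among the 10 clock genes, Nr1d1 and Dbp were lower in knockdown cells past 1.5-fold and none was higher past it. In all genes tested, 11.9% were lower past 1.5-fold and 8.28% higher, and in the 12139 genes with a mean of at least 100 counts, where all 10 clock genes lie, the shares were 4.54% and 2.5%. At 10 genes a count of 2 is too small to set the clock genes apart from either share. The median log2 fold change of the 10 was -0.12, against 0.00 over all genes tested. The members ranged from -0.68 for Nr1d1 to 0.26 for Cry1. The same libraries differed in adipocyte markers, which summed to 7643 CPM in control and 3462 CPM in knockdown cells, and in cell cycle genes, which summed to 857 and 1303 CPM. The part of these differences in the clock gene values was not tested, and in bulk RNA fewer cells of a type and less RNA per cell cannot be told apart.

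**Figure D1:**
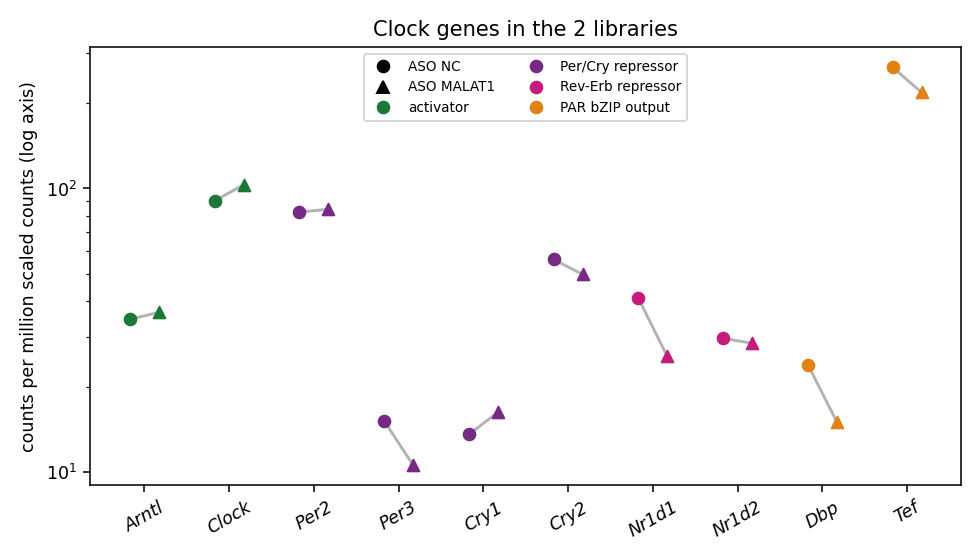
Level of each clock gene in CPM on a log axis, with circles for the ASO NC library, triangles for the ASO MALAT1 library and colours for the role in the clock. Nr1d1 went from 41.0 to 25.6 CPM and Dbp from 23.9 to 15.1 CPM, while Arntl, Per2 and Nr1d2 stayed close to level. CPM are not corrected for gene length, so heights compare the libraries and not the genes.

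The activators were level or slightly higher in knockdown cells. Arntl, the partner of CLOCK that a tissue cannot keep time without, had 1997 counts in the control against 2276 in the knockdown library. This is 34.6 and 36.6 CPM, a log2 fold change of 0.08 [-0.01, 0.17], which holds 0. Clock, which encodes the histone acetyltransferase partner, had 5223 and 6396 counts, or 90.5 and 103.0 CPM. Its log2 fold change was 0.19 [0.13, 0.24], above 0 but small. The log2 fold change of Arntl minus that of Clock was -0.10 [-0.21, 0.00].

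In the Period and Cryptochrome arm the members of each pair went apart. Per2, a repressor that also responds to glucocorticoids, had 4764 and 5250 counts, or 82.6 and 84.5 CPM, and its log2 fold change of 0.03 [-0.02, 0.09] did not leave 0. Per3, a Period gene that is dispensable for the rhythm itself and cycles strongly in peripheral tissues, had 876 counts in the control against 660 in the knockdown library. That is 15.2 against 10.6 CPM, a log2 fold change of -0.51 [-0.66, -0.37], which is 70.0% of the control level and just short of 1.5-fold. The log2 fold change of Per3 minus that of Per2 was -0.55 [-0.70, -0.39].

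Cry1, the stronger repressor of the cryptochromes and the clock gene that peaks late in the cycle, had the highest log2 fold change of the 10. It had 785 and 1012 counts, or 13.6 and 16.3 CPM, a log2 fold change of 0.26 [0.12, 0.40]. Cry2 lay on the other side of 0, with 3246 and 3094 counts, or 56.3 and 49.8 CPM, and a log2 fold change of -0.18 [-0.25, -0.10]. The value of Cry2 minus that of Cry1 was -0.44 [-0.59, -0.28].

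The REV-ERB receptors also parted. Nr1d1 had the lowest log2 fold change of the 10 clock genes, with 2367 counts in the control against 1591 in the knockdown library. Its level went from 41.0 to 25.6 CPM, 62.4% of the control level, a log2 fold change of -0.68 [-0.77, -0.59]. It was the single member whose whole counting interval lay past 1.5-fold, but barely, with the upper end at -0.587 and the threshold 0.585 below 0. This was read with TMM scaling only. Library totals gave Nr1d1 a log2 fold change of -0.66, and its interval was not recomputed there. Of genes with a mean of at least 100 counts, 3.22% had a lower value than Nr1d1. Nr1d2, its paralog with overlapping function, had 1711 and 1772 counts, or 29.7 and 28.5 CPM. Its log2 fold change of -0.06 [-0.15, 0.04] held 0. Nr1d1 minus Nr1d2 came to -0.62 on the log2 scale [-0.76, -0.49], the widest of the 5 pairs formed by role.

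Dbp, the PAR bZIP gene with the deepest daily swing in most tissues, was close to Nr1d1. It had 1382 counts in the control against 936 in the knockdown library, 23.9 against 15.1 CPM, or 62.9% of the control level. Its log2 fold change was -0.67 [-0.79, -0.55], so the upper end of the interval lay inside the threshold, and 3.34% of genes with a mean of at least 100 counts had a lower value. Tef, which has a shallower rhythm, had 15419 and 13536 counts, or 267.2 and 217.9 CPM, and a log2 fold change of -0.29 [-0.33, -0.26]. Dbp minus Tef came to -0.37 on the log2 scale [-0.50, -0.25].

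**Figure D2:**
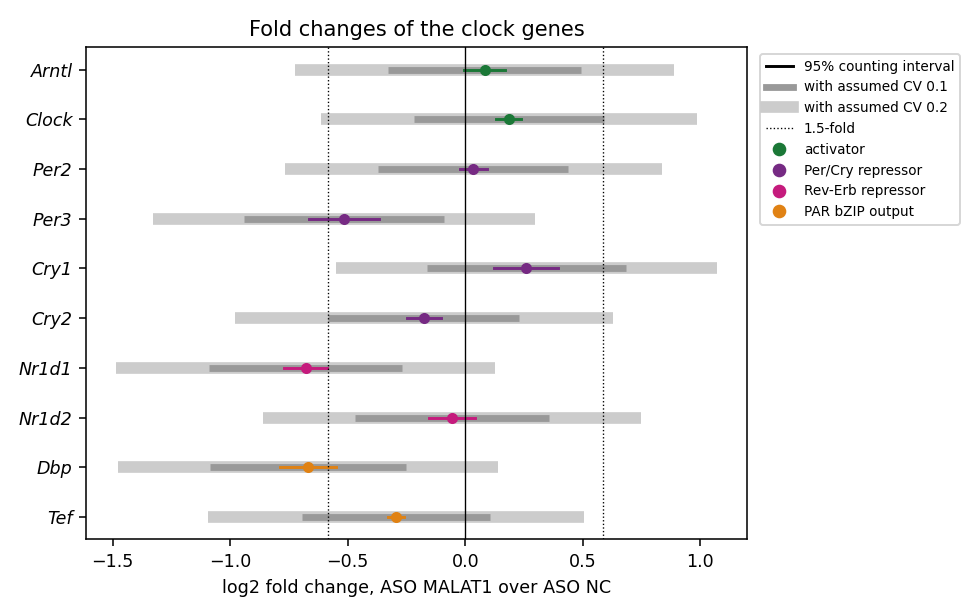
Log2 fold change of each clock gene (ASO MALAT1 over ASO NC) with its 95% counting interval as a coloured line, and in grey the wider intervals that an assumed coefficient of variation (CV) of 0.1 or 0.2 between cultures would give. Dotted lines mark 1.5-fold. Only Nr1d1, Dbp and Per3 lie off 0 at a CV of 0.1, and none does at 0.2.

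By counting error alone, Nr1d1, Dbp, Per3, Tef and Cry2 had intervals below 0, and Clock and Cry1 above it. This is 7 of 10, near the 63.4% of all genes with a mean of at least 100 counts whose intervals left out 0 (53.1% of all genes tested), so at this depth an interval off 0 sets no gene apart. The spread between cultures was not measured. If cultures varied with a CV of 0.1, the intervals of 3 members, Nr1d1, Dbp and Per3, would lie off 0, with upper ends at -0.27, -0.25 and -0.09. With a CV of 0.2 the count would be 0, and the interval of Nr1d1 would run from -1.48 to 0.13.

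**Figure D3:**
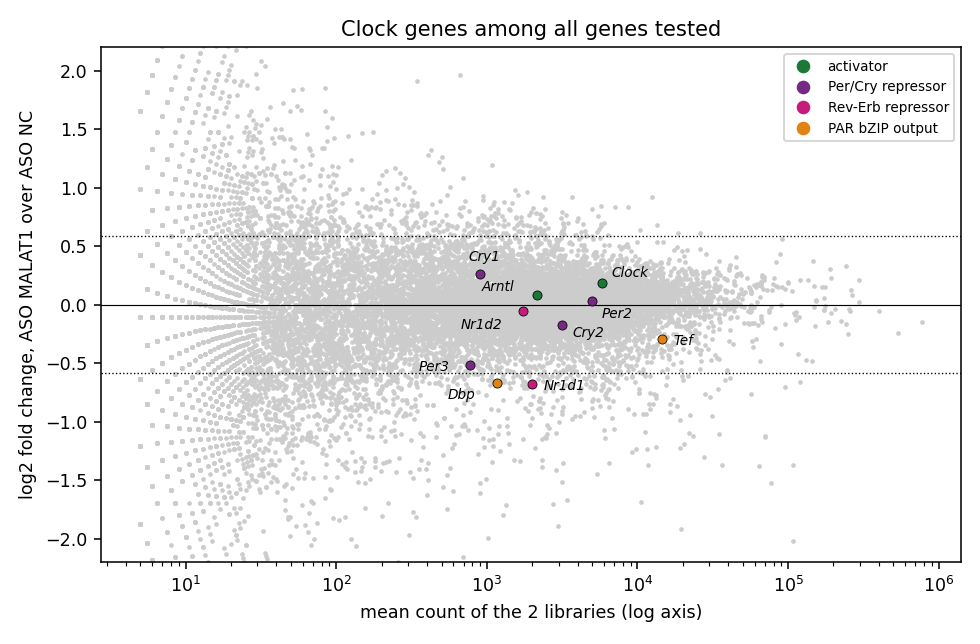
Log2 fold change against the mean count of both libraries on a log axis for the 17356 genes tested (grey) and the 10 clock genes (coloured by role), with dotted lines at 1.5-fold. The clock genes sit where most genes lie within 1.5-fold, Nr1d1 and Dbp are just below the lower line, and 394 genes with log2 fold changes beyond 2.2 in either direction are outside the plot.

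In all genes tested, 11.9% were lower past 1.5-fold, 8.28% were higher past it and 53.1% had an interval without 0. In those with a mean of at least 100 counts the shares were 4.54%, 2.5% and 63.4%. Of 13 adipocyte markers, none was at 0, all 13 were lower in knockdown cells and 11 were lower past 1.5-fold. Among the 11, Slc2a4, named after its values were seen, had 26 and 17 counts and an interval from -1.69 to 0.22. Of the 13, Retn, Cfd and Cebpa had the lowest values, at -1.99, -1.69 and -1.41 on the log2 scale, each below that of any of the 10 clock genes. All 11 cell cycle genes were higher, 8 of them past 1.5-fold, with Mcm5, Bub1 and Plk1 at 0.93, 0.87 and 0.76. The 10 fibroblast and preadipocyte markers tested had a median log2 fold change of 0.16 and a summed level of 11907 and 13067 CPM. Of these 10, 7 lay above 0, all with their whole counting interval, and 3 below 0, 2 of them with their whole interval. Past 1.5-fold, 1 was higher and 2 were lower. The lower ones were Lum and Dcn at -0.99 and -0.88, and Thy1 lay at 0.49. The one higher past 1.5-fold was Cd34, named after its values were seen, which had 19 and 69 counts and a log2 fold change of 1.73. Dlk1 was at 0 in both libraries and was not tested.

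Compared per length, as CPM per kb of the longest coding transcript in GENCODE M21, Tef was the most abundant clock gene in control cells at 60.7. Nr1d1 (15.1), Per2 (14.2), Cry2 (14.1), Dbp (13.0), Arntl (11.6) and Clock (9.29) came next, well below Tef, then Nr1d2 (6.36), Cry1 (4.50) and Per3 (2.53). Without replicates no neighbours in this order can be separated beyond their spread, and with the summed length of all exons Arntl stood in place 8 rather than 6. In knockdown cells Nr1d1 stood at 9.41 and Dbp at 8.20 CPM per kb, places 6 and 7, behind Arntl at 12.3 and Clock at 10.6.

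A ratio of clock genes inside a library does not depend on how the libraries were scaled, although it is made of the same counts. There were 1.19 Nr1d1 counts for each Arntl count in the control library and 0.699 in the knockdown library, a change of -0.76 on the log2 scale [-0.89, -0.64]. For Dbp the ratio to Arntl went from 0.692 to 0.411, a change of -0.75 [-0.90, -0.60]. The ratio of Per3 to Arntl changed by -0.60 [-0.77, -0.43], that of Tef by -0.38 and that of Cry2 by -0.26. Nr1d2, with -0.14, and Per2, with -0.05 and an interval that held 0, stayed nearest to Arntl among the lower ones. Cry1 was the one gene of the 8 that was higher against Arntl, by 0.18 [0.02, 0.34]. Measured against Clock instead, the change was -0.87 for Nr1d1, -0.85 for Dbp and -0.70 for Per3, and the interval of Cry1 held 0 (0.07, 95% interval -0.07 to 0.22). Per2, whose interval against Arntl held 0, lay below 0 against Clock, at -0.15 [-0.23, -0.07].

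**Figure D4:**
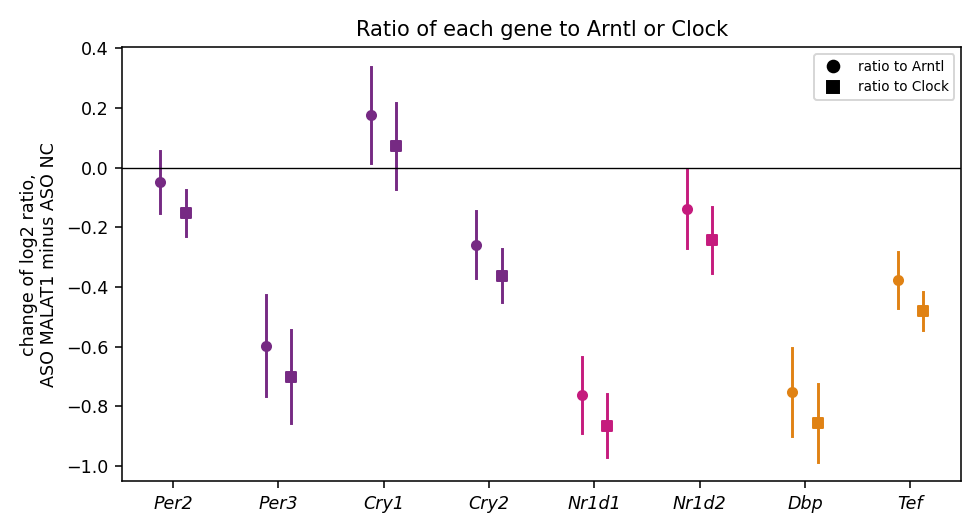
Change in the log2 ratio of each repressor or output gene to Arntl (circles) or Clock (squares) from the ASO NC to the ASO MALAT1 library, with 95% intervals for counting error. Nr1d1, Dbp and Per3 lie lowest, at -0.76, -0.75 and -0.60 against Arntl, and Cry1 is the one gene above 0, at 0.18.

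Proximal promoters of 9 of the 10 genes (all but Per2) were read from RefSeq (GRCm38.p6) as windows from 250 bases before to 50 after a transcript start. The windows were searched on both strands for the letters of the elements named above and of the CRE. The E-box CACGTG was found at Cry1 and at both annotated starts of Tef, and 7.15% of all 32851 windows hold it. The D-box, searched as TTATGTAA or TTATGCAA and held by 1.66% of windows, was found at Per3, in a pair. The core of the REV-ERB and ROR element, searched as TAGGTCA or TGGGTCA and held by 6.45% of windows, was found at Arntl. There it lay at 1 annotated start only, beginning 31 bases after that start. The CRE TGACGTCA, held by 1.79%, was found in none of the 9. No matches of different elements overlapped. No match at Nr1d1, Dbp, Clock, Cry2 or Nr1d2 says only that these letters are not in these windows. The sequences around the matches are shown 5′ to 3′ on the strand of the gene, with the matching letters in capitals. They lie at chr7:113207530-113207559 on the plus strand for Arntl, at chr10:85185097-85185126 on the minus strand for Cry1, and at chr15:81802534-81802563 and chr15:81811264-81811293 on the plus strand for the upstream and downstream starts of Tef.
Arntl, REV-ERB and ROR element core: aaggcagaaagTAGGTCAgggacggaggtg
Cry1, E-box: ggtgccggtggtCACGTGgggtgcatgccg
Tef upstream start, E-box: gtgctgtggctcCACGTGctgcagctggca
Tef downstream start, E-box: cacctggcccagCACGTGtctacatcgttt

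The 250 bases before the start are given for Per3, because of its D-box pair, and for Nr1d1 and Dbp, the members past 1.5-fold, in which no capitals appear because no searched letters matched. They are chr4:151044666-151044915 on the minus strand for Per3, chr11:98775378-98775627 on the minus strand for Nr1d1 and chr7:45704997-45705246 on the plus strand for Dbp. The D-boxes of Per3 begin 205 and 158 bases before its start.
Per3: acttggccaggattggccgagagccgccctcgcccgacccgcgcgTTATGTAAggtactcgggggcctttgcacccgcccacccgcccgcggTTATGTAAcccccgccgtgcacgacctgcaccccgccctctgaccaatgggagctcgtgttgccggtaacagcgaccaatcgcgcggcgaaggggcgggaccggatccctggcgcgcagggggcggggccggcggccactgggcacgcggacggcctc
Nr1d1: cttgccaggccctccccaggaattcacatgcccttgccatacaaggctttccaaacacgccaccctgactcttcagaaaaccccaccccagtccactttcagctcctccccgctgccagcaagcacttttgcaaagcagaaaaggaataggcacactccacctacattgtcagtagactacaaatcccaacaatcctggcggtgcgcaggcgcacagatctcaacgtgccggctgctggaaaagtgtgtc
Dbp: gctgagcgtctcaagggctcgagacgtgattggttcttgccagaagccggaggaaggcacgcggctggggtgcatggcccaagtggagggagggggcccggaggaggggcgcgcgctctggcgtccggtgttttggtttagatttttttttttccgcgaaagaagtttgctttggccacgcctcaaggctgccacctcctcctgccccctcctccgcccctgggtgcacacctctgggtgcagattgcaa
Of the genes with an E-box, Cry1 had a log2 fold change of 0.26 and Tef one of -0.29. Per3, with the D-box pair, had one of -0.51, and Arntl, with the receptor element, one of 0.08.

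Other genes lie across several of these loci in the GENCODE M21 annotation of GRCm38, and whether the counting used strand is not given in the sources used here. Nr1d1 (chr11:98767932-98775333, minus strand) shares 1075 bases with the end of Thra, the thyroid hormone receptor gene on the opposite strand. Thra, at 19458 and 20415 counts, showed a log2 fold change of -0.04 [-0.07, -0.01], against -0.68 for Nr1d1. Dbp (chr7:45705088-45710203, plus strand) shares 737 bases with Sphk2 on the opposite strand, which had 2134 and 1949 counts and a log2 fold change of -0.24. Per3 (chr4:151003652-151044665, minus strand) lies wholly within the span of Camta1 on the same strand, which had 494 and 394 counts and a log2 fold change of -0.43 [-0.63, -0.24]. How reads were divided between these genes was not tested.

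The wider clock was described with 18 more genes, listed by role. Of these, 3 were lower in knockdown cells past 1.5-fold and 0 were higher, against 11.9% and 8.28% of all genes tested, and their median log2 fold change was -0.09. Ciart, which encodes the E-box repressor CHRONO, had the lowest value, with 393 and 231 counts, or 6.81 and 3.72 CPM, and a log2 fold change of -0.87 [-1.11, -0.64]. An antisense gene that spans Ciart, C920021L13Rik, had 54 and 29 counts and a log2 fold change of -0.99 [-1.71, -0.33], and reads of the pair cannot be told apart without strand. Npas2, a paralog of Clock, had 232 and 160 counts and a log2 fold change of -0.64 [-0.94, -0.35]. Hlf, the third PAR bZIP gene, was scarce at 37 and 23 counts, and its log2 fold change of -0.78 had an interval from -1.61 to 0.00.

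Windows were held for 14 of these 18 genes, and the E-box was found at 3 of them, Ciart, Per1 and Bhlhe41. The D-box was found at Per1 and Timeless, the REV-ERB and ROR element core at Nfil3 and the CRE at Hlf. Of all 27025 genes with windows, 8.09% held the E-box, 1.98% the D-box, 7.35% the element core and 2.03% the CRE. With 14 genes these counts are too small to read against the shares. The windows of Npas2 and Hlf, the other genes of this list past 1.5-fold, held no E-box. Ciart is shown because it is past 1.5-fold and has the E-box at 3 places, which begin 116, 58 and 44 bases before its start (chr3:95882255-95882354, minus strand, E-boxes in capitals).
Ciart: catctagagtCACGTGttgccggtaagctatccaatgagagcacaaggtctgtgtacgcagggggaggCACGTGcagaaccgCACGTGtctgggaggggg

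Per1, the Period gene that glucocorticoids induce most directly, was slightly lower, with 9141 and 8736 counts or 158.4 and 140.6 CPM. Its log2 fold change of -0.17 [-0.21, -0.13] lay between those of Per2 and Per3. The genes for the kinases and ubiquitin ligases that time the decay of PER and CRY proteins (Csnk1d, Csnk1e, Gsk3b, Fbxl21, Btrc and Fbxw11) had log2 fold changes between -0.09 and 0.08. Fbxl21 was scarce among these, at 86 and 87 counts, with an interval from -0.54 to 0.36. The other genes named here were singled out after their values were seen. Bhlhe40, an E-box repressor with 4710 and 3656 counts, came nearest to the threshold from inside at a log2 fold change of -0.47 [-0.53, -0.41], whereas its paralog Bhlhe41 had -0.03. Timeless and Tipin, whose proteins act together at replication forks, had log2 fold changes of 0.24 and 0.26.

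**Figure D5:**
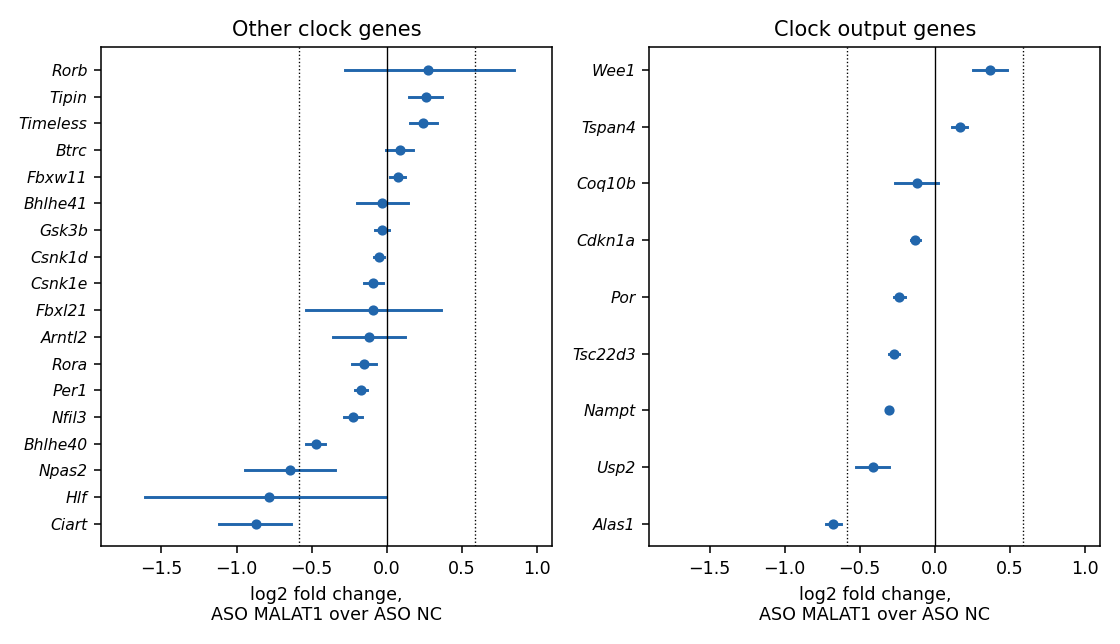
Log2 fold change (ASO MALAT1 over ASO NC) with 95% counting intervals for 18 other clock genes (left) and 9 clock output genes (right), each sorted by value, with dotted lines at 1.5-fold. Ciart at -0.87 and Hlf at -0.78 lie lowest on the left, and Alas1 at -0.67 is the one output gene past 1.5-fold.

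Of 9 genes known as outputs of the clock in many tissues, 1 was lower past 1.5-fold and 0 were higher. In all genes tested 11.9% were lower past it, and 4.54% in those with a mean of at least 100 counts, where all 9 lie, and 1 of 9 is too small a count to read against either share. Their median log2 fold change was -0.24. Alas1, the first enzyme of haem synthesis, had 8303 counts in the control against 5599 in the knockdown library, 143.9 against 90.1 CPM, a log2 fold change of -0.67 [-0.72, -0.63]. Usp2, a deubiquitinase gene that cycles in most tissues, had 1530 and 1237 counts and a log2 fold change of -0.41 [-0.52, -0.30]. Wee1, a mitotic kinase gene driven by E-boxes, lay on the other side with 1081 and 1500 counts and a log2 fold change of 0.37 [0.25, 0.48]. Of the 9 output genes, 7 lay below 0 and 2 above, beside 8756 of all 17356 genes tested below 0. With 9 genes this count too is too small to read.

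Markers of macrophages, endothelium and skeletal muscle were scarce, and so were those of osteoblasts apart from Runx2, with 1909 and 2354 counts. The macrophage markers Ptprc and Adgre1 were at 0 in both libraries, and the 5 markers summed to 3.15 and 2.53 CPM. Most came from Cd68, with 172 and 119 counts and a log2 fold change of -0.64. Csf1r and Lyz2, named after their values were seen, went the other way. They had 3 and 13 counts, and 7 and 25, with log2 fold changes of 1.84 and 1.66. The 4 endothelial markers summed to 0.849 and 0.740 CPM. The muscle regulators Myod1 and Myog were at 0 in both libraries, and the 5 skeletal muscle markers summed to 7.82 and 5.12 CPM, mostly from Des with 448 and 314 counts. The 5 osteoblast markers summed to 34.1 and 39.1 CPM, mostly from Runx2, which had a log2 fold change of 0.20. The 9 widely expressed reference genes had a median log2 fold change of 0.04 and none was past 1.5-fold. Sdha, Polr2a and Tbp were farthest from 0 among them, at -0.42, 0.17 and 0.16.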

How the data were processed

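RNA of 2 libraries, 1 of MALAT1-knockdown and 1 of control C3H10 cells, was analysed. The authors deposited whole-number read counts per gene symbol without normalization. The submitters' processing notes name HISAT2 and GRCm38. The counting tool, annotation, strand setting and treatment of duplicate and multi-mapped reads are not given in the sources used here, and reads without molecular identifiers are not independent molecules, so intervals cover counting error only.

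Library sizes were scaled by TMM in edgeR 4.0.16 (R 4.3.3), with factors of 0.992 for control and 1.01 for knockdown. Log2 fold changes used a prior count of 0.5, and exact conditional binomial (Clopper-Pearson) 95% intervals were computed with scipy 1.17.1 in Python 3.11.15. Ratios and differences between genes have normal log odds intervals. With 1 library a group, no model with replicates could be fitted and no p-value was computed. On simulated counts with counting error only for 17356 genes, 197 of 200 changed genes were recovered past 1.5-fold with the right sign. The changed genes were drawn only from those with at least 200 counts summed, and each was given a change past 1.5-fold. Recovery of genes with fewer counts, or of changes closer to the threshold, was not tested. In the same simulated counts 95.4% of intervals over all 17356 genes held the true value. Spread between cultures was not part of these counts, so recovery and coverage under it were not tested.

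The clock genes and all gene lists were chosen with earlier results of these data known. Named are all 10 clock genes, in the wider list Per1 and each gene past 1.5-fold, in other lists up to 3 genes with the largest change among those with a mean of at least 100 counts, and Malat1 and Thra. Exceptions are marked as chosen after their values were seen, apart from genes listed by role, at 0 or overlapping a named gene. Some genes of the wider list are not reported here. Likeness of pattern was not sought, since 2 libraries give 1 fold change a gene.

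Alternatives were library totals, DESeq2 1.42.0 size factors, upper-quartile factors, prior counts of 2 and 0.125, other filters on counts, a 2-fold threshold, intervals wholly past 1.5-fold, assumed CVs of 0.1, 0.2 and 0.4 between cultures, and Clock as denominator. Promoter letters came from RefSeq's GRCm38.p6 table, and gene spans and transcript lengths from GENCODE M21, also GRCm38.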

Additional observations from a re-analysis of the deposited data

How the results depend on the processing

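Each group held 1 library, so the spread between cultures is unknown, no library could be left out, and depth limits only genes of few counts such as Hlf. No paired analysis was possible because each group held 1 library. Under library totals, DESeq2 size factors, upper-quartile factors and both other prior counts, 0 of 50 recomputed fold changes of the 10 clock genes changed sign, and the largest move was 0.02 on the log2 scale. The same scalings left the median of all genes tested between 0.00 and 0.02. A 2-fold threshold left 0 clock genes lower, 0 wider clock genes and 0 output genes. Asking that the whole counting interval lie past 1.5-fold left 1 clock gene and 1 wider clock gene. This rule was applied with TMM scaling only, and the clock gene, Nr1d1, passed it barely, so whether it would pass under the other scalings was not tested. With an assumed CV of 0.1 between cultures, 3 clock genes had intervals without 0, and the count was 0 with 0.2 and 0 with 0.4, against 7 for counting error only.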

Other observations

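Dexamethasone was in the induction medium and glucocorticoids are known to act on Per1, so 7 glucocorticoid-responsive genes, Per1 among them, were set beside the clock. They did not go one way. In knockdown cells 5 lay below 0 and 2 above, 1 of them was lower past 1.5-fold, and their median log2 fold change was -0.27. Of all 17356 genes tested, 8756 lay below 0 and 11.9% were lower past 1.5-fold, or 4.54% of those with a mean of at least 100 counts, where all 7 lie. Fkbp5, which encodes a co-chaperone of the glucocorticoid receptor, had 351 counts in the control against 246 in the knockdown library, a log2 fold change of -0.62 [-0.86, -0.38]. Klf9, a transcription factor gene, had 5702 and 4875 counts and a log2 fold change of -0.33 [-0.39, -0.28]. Sgk1, a kinase gene, was higher, with 10760 and 14720 counts and a log2 fold change of 0.35 [0.31, 0.38]. Whether these values and those of the Period genes move together was not tested, since each gene has 1 fold change.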
